A study of Mus musculus with 8 samples.

Results

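Cholesterol synthesis and its control by SREBP2 were followed through 28 genes of the 17810 listed in the liver table. These were chosen by gene symbol from what is known of the pathway, at a time when earlier results of these data were known. They comprise 9 enzymes from acetyl-CoA to squalene and the branch to geranylgeranyl diphosphate, 10 enzymes from squalene to cholesterol, 6 genes of SREBP2 and its processing, and 3 genes of lipoprotein receptor turnover, sterol transport and acetyl-CoA supply. All 28 were found and all 28 had enough counts to be tested. RNA-Seq had been run on the livers of 4 WT and 4 HKO mice, with 1 library per liver. All were male mice of 5 months that had changed from chow to CD-HFD, a high-fat diet without added choline, at 8 weeks of age and had stayed on it for 3 months, and the study's methods give a fast of 6 hours at the end. HKO mice carry miR-33 loxP/loxP alleles and Cre recombinase under the albumin promoter, so that miR-33 is deleted in hepatocytes. The study states that an effect of this Cre on miR-33 in cholangiocytes remains to be checked. WT mice were littermates, and the sources used here do not say whether they carried the floxed alleles or Cre.

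Cells make cholesterol from acetyl-CoA through mevalonate, isoprenoid diphosphates, squalene and lanosterol. Most of the enzymes are switched on together by SREBP2, a transcription factor that is made as a precursor in the membrane of the endoplasmic reticulum. When sterols are scarce, the escort protein SCAP carries the precursor to the Golgi, where the proteases encoded by Mbtps1 and Mbtps2 release its active part. When sterols are plentiful, INSIG1 or INSIG2 holds SCAP back. In the liver this system answers to dietary sterol, feeding and the return of bile acids and lipoprotein cholesterol. miR-33 is transcribed with Srebf2, the gene for SREBP2, from one of its introns.

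The sequences of miR-33 and of its seed match among the 28 genes are shown because the deleted RNA and its host gene belong to this pathway. On GRCm38.p6, Mir33 lies on chromosome 15 from 82198122 to 82198190, in the intron from 82197787 to 82199634 between exons 16 and 17 of transcript 201 of Srebf2. The mature strands from RefSeq follow, 5′ to 3′, with the seed (bases 2 to 8) in capitals.
mmu-miR-33-5p: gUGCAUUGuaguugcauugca
mmu-miR-33-3p: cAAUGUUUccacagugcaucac

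A match to the 5p seed was present in the longest annotated 3′UTR of 1 of the 28 genes, or 3.57%, against 1874 of 11536 tested genes with a 3′UTR, or 16.2%. Both counts also took in sites that leave the last base of the seed unpaired but have an A opposite base 1. The median 3′UTR length was 1217 bases in the 28 genes and 1214 bases in all. The match is in Nsdhl, which encodes a sterol 4-alpha-carboxylate dehydrogenase, within chrX:72958166-72958189 on the plus strand of GRCm38. The capitals mark the 7 letters that pair with the seed and the A that follows them, which lies opposite base 1.
Nsdhl 3′UTR: tgatggtgCAATGCAAtggtacag

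Promoters are shown for Hmgcs1, Insig2 and Ebp, the 3 genes in which no HKO liver overlapped a WT liver. Each RefSeq window (GRCm38.p6) runs from 250 bases before the annotated start to 50 after it, and 24 of the 28 genes had at least 1 window. No window was used for Fdps, Fdft1, Sqle and Stard4. Capitals mark TCACNCCAC, the core letters of a sterol regulatory element, CCAAT, the letters read by NF-Y, and GGGCGG, the letters read by Sp1, on either strand. Insig2 has 3 windows, and the one at the start farthest upstream is given.
Hmgcs1, chr13:119690101-119690400, plus strand: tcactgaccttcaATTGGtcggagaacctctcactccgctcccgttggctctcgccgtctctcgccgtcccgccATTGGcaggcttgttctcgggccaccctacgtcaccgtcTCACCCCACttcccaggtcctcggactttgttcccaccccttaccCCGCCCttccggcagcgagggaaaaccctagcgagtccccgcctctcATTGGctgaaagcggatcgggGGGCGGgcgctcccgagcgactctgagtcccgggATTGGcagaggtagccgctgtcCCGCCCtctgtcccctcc
Insig2, chr1:121332540-121332839, minus strand: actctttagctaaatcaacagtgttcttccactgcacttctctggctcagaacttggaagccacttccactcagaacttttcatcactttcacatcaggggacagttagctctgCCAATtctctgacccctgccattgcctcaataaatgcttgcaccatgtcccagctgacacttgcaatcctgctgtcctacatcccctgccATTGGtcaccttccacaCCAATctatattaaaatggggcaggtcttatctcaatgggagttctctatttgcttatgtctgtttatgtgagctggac
Ebp, chrX:8193463-8193762, minus strand: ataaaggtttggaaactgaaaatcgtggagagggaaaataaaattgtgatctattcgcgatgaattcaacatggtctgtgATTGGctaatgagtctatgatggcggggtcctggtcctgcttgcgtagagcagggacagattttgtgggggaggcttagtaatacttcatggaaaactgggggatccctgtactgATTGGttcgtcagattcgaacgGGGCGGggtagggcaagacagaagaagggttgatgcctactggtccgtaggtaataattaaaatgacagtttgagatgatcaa

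TCACNCCAC occurred in 1 of the 30 windows of the 24 genes and in 1.24% of all 32851 windows. That 1 window is of Hmgcs1, where the motif reads TCACCCCAC and begins 137 bases before the start. CCAAT was present in 20 of the 30 windows of these genes and in 37.4% of all windows. GGGCGG was present in 24 of the 30 and in 35.7% of all windows. The search allowed no other spelling of these letters.

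The libraries held 12174339 to 18319736 estimated counts in WT and 12509201 to 18735785 in HKO livers, so that 3 counts, the floor used here, are 0.16 to 0.246 CPM (counts relative to library sizes that were scaled by TMM and set to a common total). The floor covers counting error only. The column names of the livers end in numbers that ran from 55 to 58 for HKO and from 59 to 62 for WT livers. What these numbers stand for is not given. Genotype and whatever they stand for cannot be told apart. Mir33 itself was not analysed here, and the genotype was taken from the labels. The summed level of 8 hepatocyte markers was 95783 to 129517 CPM in WT and 87079 to 141850 CPM in HKO livers. Of these 8 markers Hnf4a, Cps1 and Ass1 were higher in HKO livers (adjusted p under 0.05 in edgeR), where 5.03% of all tested genes were called in either direction. In HKO livers 5 of the 8 estimates were higher and 3 lower, the lowest with a log2 fold change of -0.11. The sum of 7 stellate cell markers was 369 to 530.2 CPM in WT and 304 to 412 CPM in HKO livers. Col1a1 and Col3a1 were called lower in HKO livers, where 3.37% of all tested genes were. Of the 7 estimates 5 were lower in HKO livers and 2 higher, up to a log2 fold change of 0.43. The sum of 6 macrophage and Kupffer cell markers was 57.2 to 148 CPM in WT and 43.5 to 142.5 CPM in HKO livers, and that of 5 endothelial markers 52.6 to 175 and 92.5 to 201 CPM. The 5 cholangiocyte markers summed to 40.6 to 50.8 CPM in WT and 30.8 to 107.8 CPM in HKO livers, with the highest value in HKO replicate 2. The sum of 6 lymphocyte markers was low but did not overlap between the genotypes, at 0.661 to 2.83 CPM in WT and 3.32 to 5.06 CPM in HKO livers, and its part in the pathway's levels was not tested. The 1 lymphocyte marker with enough counts to be tested, Cd4, was higher in HKO livers by 1.84 on the log2 scale (adjusted p = 0.076 in edgeR, called by DESeq2). The neutrophil and adipocyte sums were at most 8.11 and 3.78 CPM. In bulk liver, fewer cells of a type and less RNA per cell cannot be told apart.

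One WT liver, replicate 1, stood apart from the other 7 in this pathway. It held the highest of the 8 levels in 22 of the 28 genes, or 78.6%, whereas it was the highest liver in 13.4% of all 12395 tested genes. On the log2 scale its median distance from each gene's own mean was 1.18, against -0.32 to 0.04 in the other 7 livers. It was highest in 8 of the 9 genes to squalene, 9 of the 10 genes from squalene to cholesterol, 3 of the 6 genes of SREBP2 processing and 2 of the remaining 3. Its summed stellate cell markers were the highest of the 8 livers, at 530.2 CPM, its macrophage markers were the lowest of the WT livers, at 57.2 CPM, and its hepatocyte markers were the highest WT value, at 129517 CPM. The part of these differences in its pathway levels was not tested. Results are therefore given with and without this liver.

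**Figure D1:**
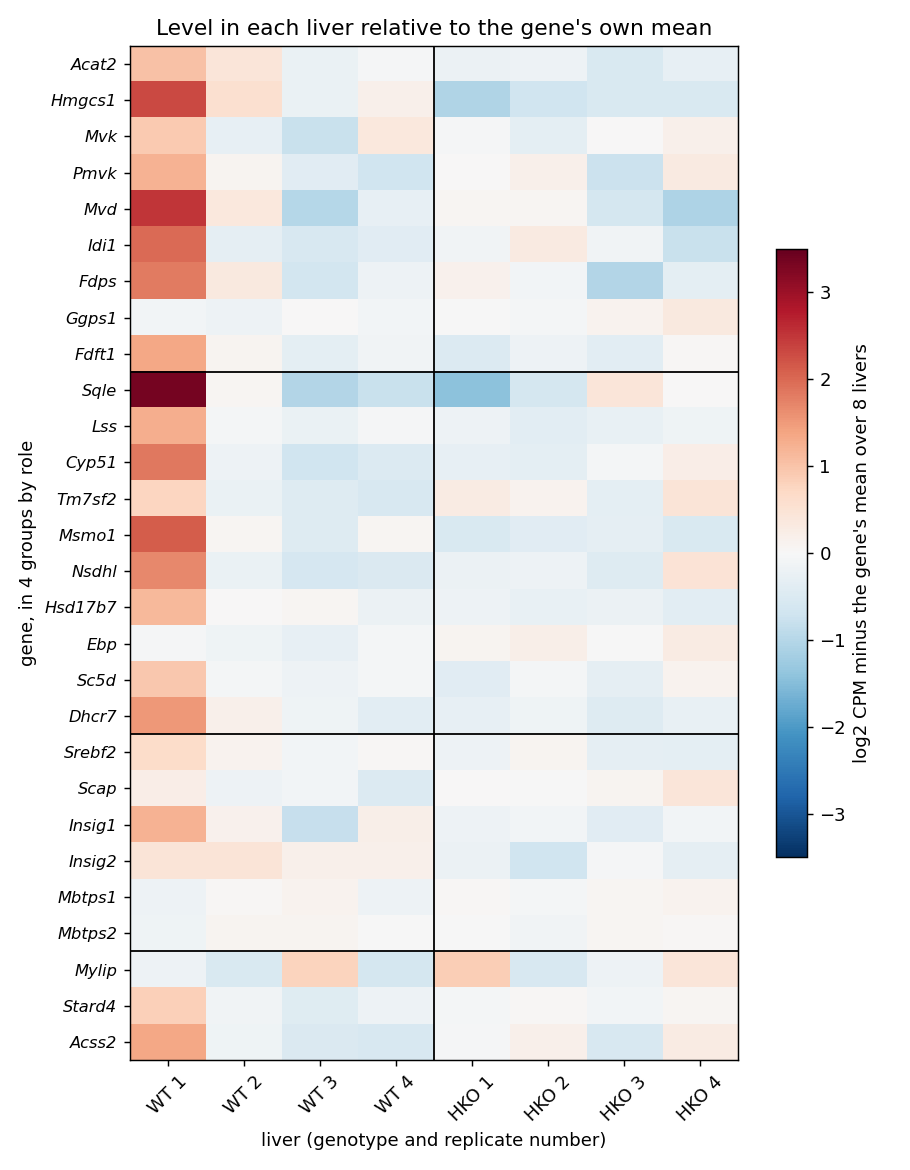
Heat map of the 28 genes (rows, in 4 groups by role, from the acetyl-CoA end of the pathway downwards) in the 8 livers (columns), coloured by log2 CPM minus the gene's mean over the 8 livers. The WT replicate 1 column is above the gene's mean in 23 of the 28 rows, and each other column is above it in 6 to 16 rows.

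**Figure D2:**
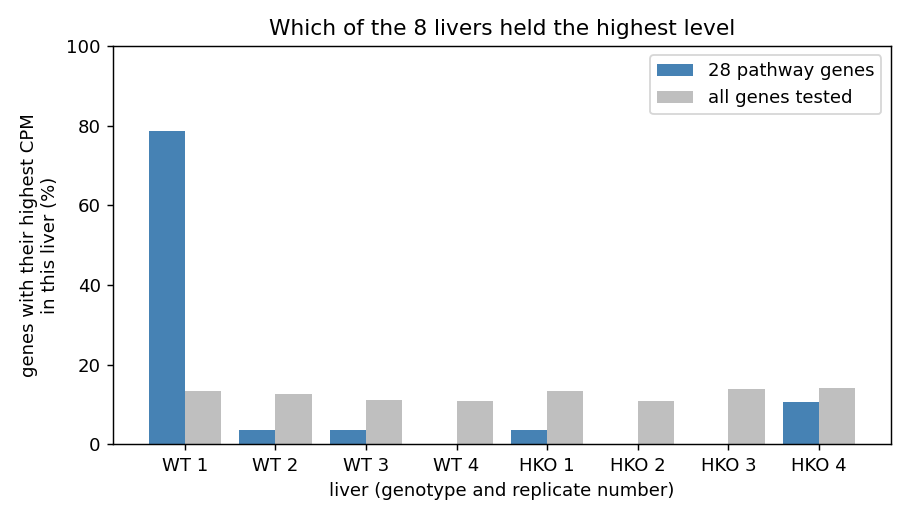
Bar chart of the share of genes (%, from 0) whose highest CPM was in each liver, for the 28 pathway genes and for all genes tested. WT replicate 1 held the highest level in 78.6% of the 28 genes, and in 13.4% of all genes tested.

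The comparison of HKO with WT livers asks whether loss of miR-33 in hepatocytes goes with a change in the transcripts of its host gene's pathway. In the 4 against 4 comparison, 22 of the 28 genes had a lower estimate in HKO livers and 6 a higher one, where 48.4% of all tested genes had a lower one. The median log2 fold change (log2FC, HKO minus WT, with its standard error as SE) of the 28 genes was -0.52 in edgeR, against 0.01 over all tested genes, and -0.28 in limma-voom. By the quasi-likelihood test of edgeR, adjusted over all tested genes by the Benjamini-Hochberg method, 1 of the 28, Insig2, was lower in HKO livers at an adjusted p under 0.05 and none was higher. Of all tested genes 5.03% passed, and 3.37% passed as lower in HKO livers. Without WT replicate 1 the estimates were 14 lower and 14 higher, where 48.2% of all tested genes were lower, the median was -0.01 and none passed, where 2.17% of all tested genes did. An unadjusted p under 0.05 was reached by 5 of the 28 genes with all 8 livers, against 19.8% of all tested genes, and by 8 without WT replicate 1, against 15.9%. DESeq2 called 3 of the 28, Insig2 and Hmgcs1 lower and Ebp higher, against 7.67% of all genes it tested. It gave no p for Sqle and Cyp51 with all 8 livers, so it could not call them. Without WT replicate 1 it called Insig2 and Hmgcs1, against 4.79%. limma-voom called Insig2 alone, against 4.91% of all tested genes, and without WT replicate 1 none, against 2.38%. The genotypes did not overlap in 3 of the 28 genes, against 12.5% of all tested genes. The HKO livers were all below in 2 of them, Hmgcs1 and Insig2, against 7.19% of all tested genes, and all above in 1, Ebp, against 5.34%.

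**Figure D3:**
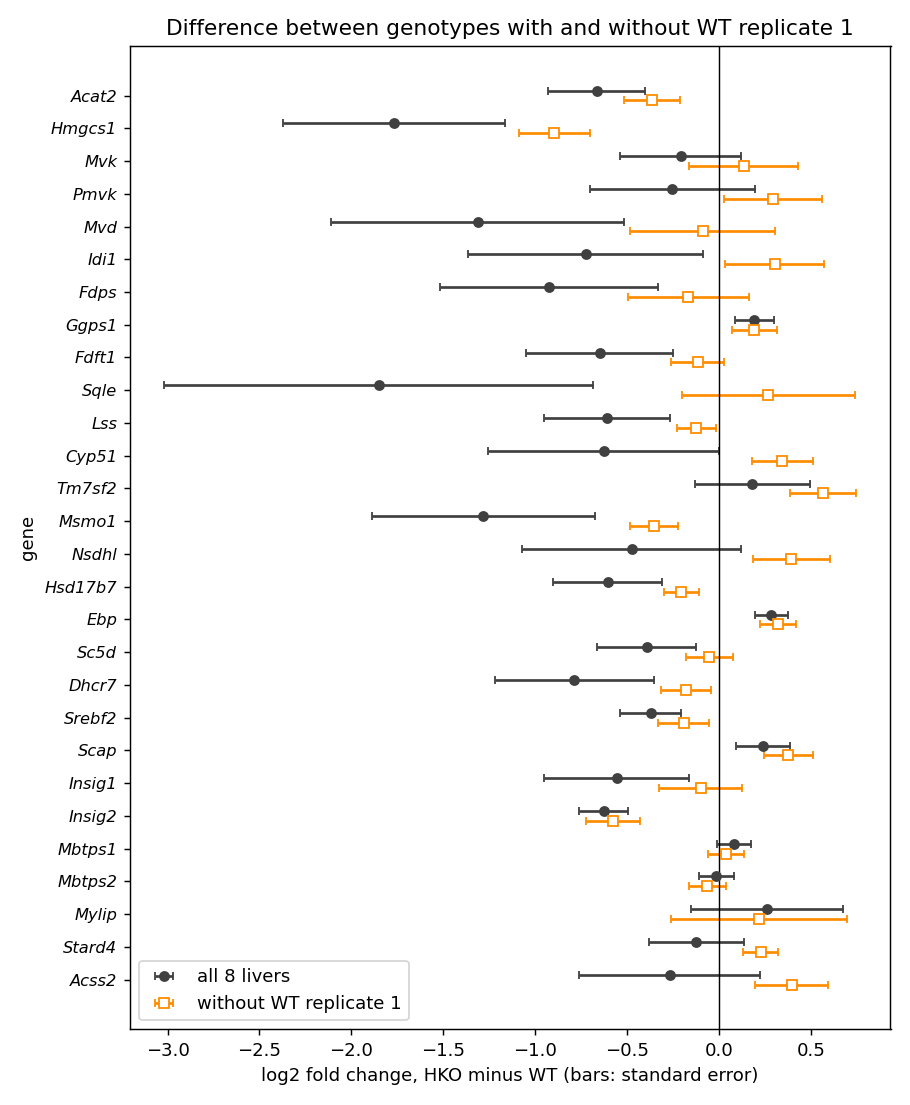
Log2FC of HKO against WT livers for each of the 28 genes (points, with bars of 1 SE) from edgeR with all 8 livers and without WT replicate 1. Without this liver Sqle moves from -1.85 to 0.27 and Cyp51 from -0.63 to 0.35, while Insig2 moves from -0.63 to -0.58.

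The enzymes that build mevalonate and the isoprenoid units had no gene past the threshold in edgeR, 2 with an unadjusted p under 0.05 (Hmgcs1 and Acat2), 1 past it in DESeq2 (Hmgcs1) and none in limma-voom, and 8 of the 9 estimates were below 0. Hmgcs1, the cytosolic synthase that makes HMG-CoA (chromosome 13, 119690351 to 119708260, plus strand), was measured at 1082, 319, 187 and 248 CPM in WT replicates 1 to 4 and at 105, 134, 149.7 and 152 CPM in HKO replicates 1 to 4. Every HKO liver was below every WT liver, and WT replicate 1 was 3.39 times the next WT liver. WT livers averaged 459 ± 419 CPM (SD, n = 4) against 135 ± 21.6 CPM (SD, n = 4) for HKO livers, and the log2FC was -1.77 (SE 0.60, adjusted p = 0.177 in edgeR, 0.0391 in DESeq2). Without WT replicate 1 the WT mean was 251 ± 66.2 CPM (SD, n = 3) and the log2FC -0.89 (SE 0.19, adjusted p = 0.0549 in edgeR, 0.000181 in DESeq2). With all 8 livers the HKO livers were all below the WT livers in 7.19% of all tested genes. WT replicate 1 was the highest WT liver of Hmgcs1, so leaving it out could not make the groups overlap. Without WT replicate 1 the groups did not overlap, in either direction, in 15.1% of all tested genes. The difference and its SE were smaller without that liver, and edgeR called Hmgcs1 in neither fit.

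Acat2, the cytosolic thiolase that joins acetyl-CoA units (chromosome 17), was measured at 127, 83.6, 53.4 and 60.3 CPM in WT and at 54.1, 55.3, 43.5 and 51.5 CPM in HKO livers. WT replicate 3 fell among the HKO livers, and the log2FC was -0.67 (SE 0.26, adjusted p = 0.219 in edgeR). Its deposited values were fractional in all 8 livers, so reads that match more than 1 gene entered it. Mvd, the decarboxylase that yields isopentenyl diphosphate, was measured at 11.3, 2.58, 0.995 and 1.64 CPM in WT and at 2.09, 2.08, 1.30 and 0.936 CPM in HKO livers. Apart from WT replicate 1 its levels overlapped between the genotypes, and the log2FC of -1.31 (SE 0.80, adjusted p = 0.426) became -0.09 without that liver and was -0.58 in limma-voom with all livers. Idi1, which converts isopentenyl to dimethylallyl diphosphate, was measured at 12.8, 2.58, 2.19 and 2.43 CPM in WT and at 2.97, 4.01, 2.93 and 1.87 CPM in HKO livers. Its log2FC of -0.73 (adjusted p = 0.602) became 0.30 without WT replicate 1, and its values were fractional in all 8 livers.

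Fdps, which makes farnesyl diphosphate, was measured at 196, 70.9, 35.7 and 50.02 CPM in WT and at 62.1, 52.1, 27.6 and 44.1 CPM in HKO livers. WT and HKO livers overlapped, and the log2FC was -0.92 (SE 0.59, adjusted p = 0.462) and -0.17 without WT replicate 1. Fdft1, the squalene synthase, was at 165 CPM in WT replicate 1 and at 50.5 to 68.6 CPM in the other WT livers, against 45.8 to 66.1 CPM in HKO livers. The kinases Mvk and Pmvk, which phosphorylate mevalonate, had log2FCs of -0.21 and -0.25 and of 0.13 and 0.29 without WT replicate 1. Ggps1, which makes geranylgeranyl diphosphate for protein prenylation rather than sterol, did not share the peak in WT replicate 1: it was at 16.0 to 18.2 CPM in WT and 17.4 to 22.9 CPM in HKO livers, a log2FC of 0.19 (adjusted p = 0.357).

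From squalene onward no gene passed the threshold in edgeR or limma-voom, while Ebp passed it in DESeq2 and was the 1 gene with an unadjusted p under 0.05 in edgeR. In this group 8 of the 10 estimates were below 0 with all 8 livers and 5 of the 10 without WT replicate 1. Sqle, the squalene epoxidase and a rate-limiting step of the later pathway, was measured at 118, 12.1, 5.67 and 6.77 CPM in WT and at 4.32, 7.57, 15.5 and 11.7 CPM in HKO livers. WT replicate 1 was 9.76 times the next WT liver, and the other 3 WT livers lay within the HKO range. The log2FC was -1.85 with an SE of 1.17 (adjusted p = 0.455) and 0.27 with an SE of 0.47 without that liver (adjusted p = 0.853). In limma-voom with all livers it was -0.61. Msmo1, the methylsterol monooxygenase, was measured at 359.7, 86.6, 60.6 and 86.4 CPM in WT and at 56.8, 62.4, 67.3 and 57.2 CPM in HKO livers. WT replicate 3 lay among the HKO livers, and the log2FC was -1.28 (adjusted p = 0.317) with all livers and -0.35 (adjusted p = 0.216) without WT replicate 1. Dhcr7, which reduces 7-dehydrocholesterol to cholesterol, was measured at 75.5, 29.4, 23.5 and 20.2 CPM in WT and at 21.4, 23.5, 19.2 and 21.7 CPM in HKO livers. HKO replicate 2 lay above WT replicates 3 and 4, and the log2FC was -0.79 (adjusted p = 0.381) and -0.18 without WT replicate 1.

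The 14-alpha-demethylase Cyp51 was at 301 CPM in WT replicate 1 and at 51.6 to 73.9 CPM in the other WT livers, against 66.3 to 99.8 CPM in HKO livers. Nsdhl, the gene with the seed match shown above, was at 99.7 CPM in WT replicate 1, 20.9 to 26.5 CPM in the other WT livers and 22.9 to 43.6 CPM in HKO livers. Its log2FC was -0.47 (adjusted p = 0.734) with all livers and 0.39 (adjusted p = 0.412) without WT replicate 1. The lanosterol synthase Lss, the 17-beta-hydroxysteroid dehydrogenase Hsd17b7, which also acts on the sterol ring, and the lathosterol oxidase Sc5d had log2FCs of -0.61, -0.61 and -0.39, and of -0.12, -0.20 and -0.05 without WT replicate 1. Tm7sf2, a sterol reductase, had 0.18 and 0.57.

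Ebp, the sterol isomerase, had a higher estimate in HKO livers. It was measured at 145, 133, 121 and 141 CPM in WT and at 159, 170.4, 146 and 182 CPM in HKO livers, and no HKO liver reached down to the WT range. WT livers averaged 135 ± 10.8 CPM (SD, n = 4) against 164 ± 15.1 CPM (SD, n = 4) for HKO livers, and the log2FC was 0.28 (SE 0.09, adjusted p = 0.0982 in edgeR, 0.0499 in DESeq2). WT replicate 1 was 1.02 times the next WT liver, and without it the log2FC was 0.32 (adjusted p = 0.139 in edgeR).

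**Figure D4:**
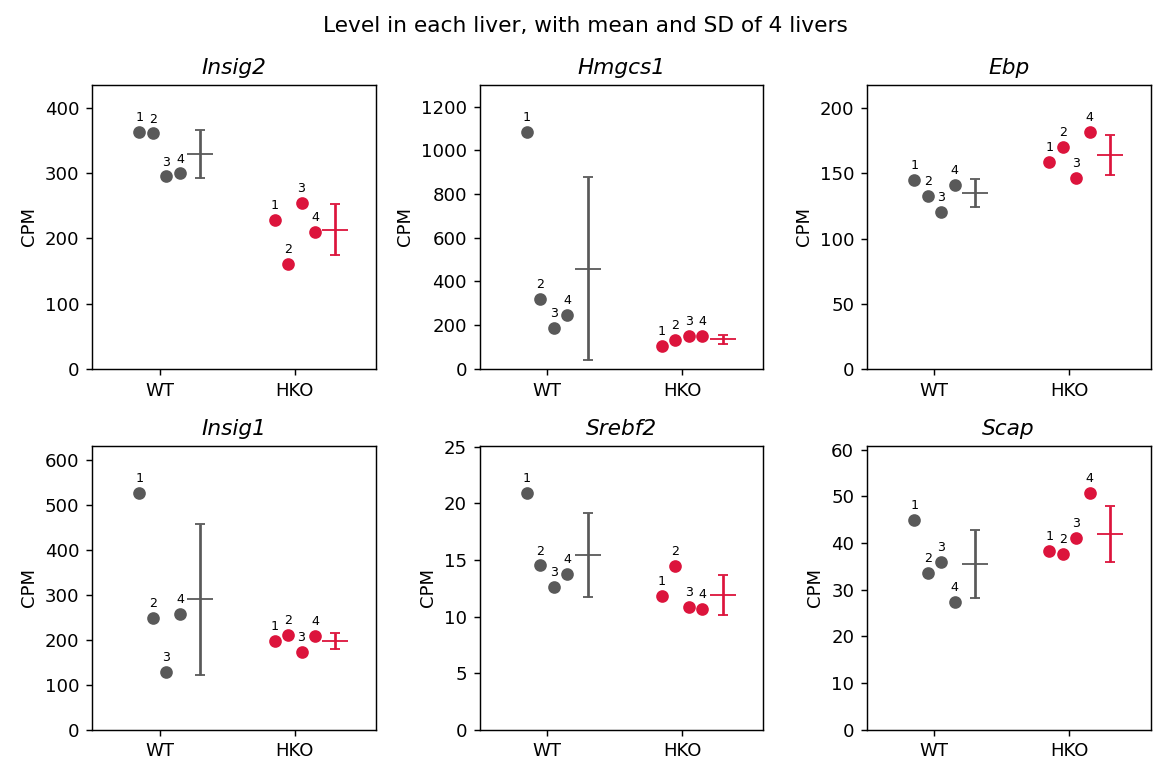
CPM (linear axes from 0) of Insig2, Hmgcs1, Ebp, Insig1, Srebf2 and Scap in each liver, with replicate numbers above the points and the mean and SD of 4 livers at the side. The genotypes do not overlap in Insig2, Hmgcs1 and Ebp, and WT replicate 1 is the highest point of Hmgcs1, at 1082 CPM, and of Insig1, at 525.7 CPM.

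Of the 6 genes of SREBP2 and its processing, Insig2 alone was called lower in HKO livers by edgeR, where 3.37% of all tested genes were. Insig2 (chromosome 1, 121304353 to 121332589, minus strand) was measured at 362, 361, 295 and 299 CPM in WT and at 228, 161, 254 and 209.9 CPM in HKO livers. Every HKO liver was below every WT liver, and WT replicates 1 and 2 were nearly level. WT livers averaged 329 ± 37.2 CPM (SD, n = 4) against 213 ± 39.2 CPM (SD, n = 4) for HKO livers, and the log2FC was -0.63 (SE 0.13, adjusted p = 0.0233 in edgeR, 0.000623 in DESeq2, 0.0211 in limma-voom). The adjusted p in edgeR rose to 0.0745 without WT replicate 1, to 0.0895 without WT replicate 2 and to 0.0679 without HKO replicate 4, and Insig2 was called in 5 of the 8 fits that left out a liver. Its log2FC stayed between -0.72 and -0.51 in these 8 fits. HKO replicate 2, the liver with the highest cholangiocyte marker sum, was its lowest value, and without that liver the log2FC was -0.51 and Insig2 was still called. The deposited Insig2 values were fractional in 6 livers.

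Insig1, the INSIG that is itself switched on by SREBP2, was measured at 525.7, 248, 129 and 257 CPM in WT and at 198, 210.0, 172 and 209 CPM in HKO livers. WT livers spanned the HKO values, and the log2FC was -0.56 (SE 0.39, adjusted p = 0.509 in edgeR) and -0.10 without WT replicate 1. Srebf2, the host of miR-33 (chromosome 15, 82147269 to 82204960, plus strand), was measured at 20.9, 14.5, 12.6 and 13.8 CPM in WT and at 11.8, 14.4, 10.8 and 10.6 CPM in HKO livers. WT replicate 2 and HKO replicate 2 were level, and the log2FC was -0.37 (SE 0.17, adjusted p = 0.243 in edgeR) and -0.19 without WT replicate 1. Scap was measured at 45.1, 33.6, 36.0 and 27.4 CPM in WT and at 38.4, 37.6, 41.1 and 50.7 CPM in HKO livers, a log2FC of 0.24 (adjusted p = 0.408). Without WT replicate 1 the HKO livers were all above the WT livers in Scap, and likewise in Stard4, where 15.1% of all tested genes had groups that did not overlap, and the Scap log2FC was 0.38 (adjusted p = 0.187). The proteases Mbtps1 and Mbtps2 had log2FCs of 0.08 and -0.01, with levels of 38.2 to 47.7 and 16.5 to 19.6 CPM over all 8 livers.

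Mylip, a ubiquitin ligase that removes lipoprotein receptors and is switched on by LXR, was measured at 9.92, 7.68, 19.1 and 7.30 CPM in WT and at 20.5, 7.64, 9.92 and 15.1 CPM in HKO livers. Both genotypes spanned nearly the same range (log2FC 0.26, SE 0.41, adjusted p = 0.797). Stard4, which carries sterol between membranes, was at 253 CPM in WT replicate 1, 106 to 131.4 CPM in the other WT livers and 135 to 149 CPM in HKO livers. Acss2, which makes acetyl-CoA from acetate, was at 247 CPM in WT replicate 1, 66.2 to 87.9 CPM in the other WT livers and 66.1 to 119 CPM in HKO livers. Their log2FCs of -0.12 and -0.27 became 0.23 and 0.40 without WT replicate 1.

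The spread between livers differed between the genotypes in the same genes. The SD of log2 CPM was larger in WT than in HKO livers in 25 of the 28 genes, against 46.3% of all tested genes. The median SD over the 28 genes was 0.70 in WT and 0.22 in HKO livers, and 0.21 in the 3 WT livers without replicate 1. Over all tested genes these medians were 0.18, 0.19 and 0.18.

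Mean levels per kilobase of coding transcript exon (merged GENCODE M21 exons) ranged over the pathway from 126 CPM per kb for Hmgcs1, 118 for Sc5d, 109 for Insig2 and 107.5 for Insig1 to 1.62 for Idi1 and 1.52 for Mvk in WT livers. Without WT replicate 1 the order in WT livers was Insig2 at 105.6 CPM per kb, Sc5d at 93.5, Insig1 at 78.4, Ebp at 75.5 and Hmgcs1 at 68.9. In HKO livers Ebp was highest at 94.2 CPM per kb, followed by Sc5d at 90.1, Insig1 at 73.1 and Insig2 at 70.8, with Hmgcs1 at 37.0 and Srebf2 at 2.28.

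Genes around the pathway were read from further lists. For comparison, edgeR called 5.03% of all tested genes and DESeq2 7.67% of all genes it tested. An unadjusted p under 0.05 in edgeR was reached by 19.8% of all tested genes. Of 14 genes of sterol-regulated degradation and SCAP handling in the endoplasmic reticulum, none was called by edgeR, DESeq2 or limma-voom and 2 had an unadjusted p under 0.05 in edgeR. Their log2FCs lay between -0.17 and 0.34, and WT replicate 1 was highest in none of the 14. Of 5 electron donors of the sterol enzymes and 13 genes of the non-sterol branches, none was called by these tools, 2 and 0 had an unadjusted p under 0.05, and WT replicate 1 was highest in 2 and in 1. All 7 other genes known to respond to SREBP2 had lower estimates in HKO livers, from -0.83 to -0.26, and WT replicate 1 was highest in 6. None was called by edgeR or limma-voom, and 3 had an unadjusted p under 0.05. The genotypes did not overlap in 3 of the 7, against 12.5% of all tested genes. Without WT replicate 1 all 7 estimates stayed lower, from -0.67 to -0.04, where 48.2% of all tested genes were lower. In that fit edgeR called none of the 7. DESeq2 called 1 of them, Tmem97, a sterol-binding membrane protein, whose log2FC in edgeR was -0.52 (adjusted p = 0.103) and -0.31 without WT replicate 1 (adjusted p = 0.13). WT replicate 1 was also highest in all 7 tested genes of fatty acid synthesis under SREBP1, of which edgeR and limma-voom called none. Their estimates were all lower in HKO livers, from -1.31 to -0.12. Without WT replicate 1, 6 were lower and 1 higher, from -1.13 to 0.23, and edgeR called none. Me1, the malic enzyme that supplies NADPH, was the 1 gene with an unadjusted p under 0.05 and the 1 called by DESeq2, with a log2FC of -1.31 (adjusted p = 0.0657 in edgeR).

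In the oxysterol and LXR arm, 2 of 11 tested genes rose in HKO livers in edgeR, where 5.03% of all tested genes were called. DESeq2 called 4 of the 11, against 7.67% of all genes it tested. An unadjusted p under 0.05 in edgeR was reached by 6, against 19.8% of all tested genes. Abca1, the cholesterol exporter, is named by the study as a bona fide target of miR-33. Its log2FC was 0.47 (adjusted p = 0.0175), and that of Cyp27a1, a sterol 27-hydroxylase of bile acid synthesis, was 0.52 (adjusted p = 0.0264). Without WT replicate 1 the estimates were 0.45 and 0.54, with adjusted p = 0.0608 and 0.0662. Lpcat3, a phospholipid-remodelling acyltransferase, had a log2FC of -0.41 (adjusted p = 0.0516 in edgeR, 0.0221 in DESeq2). Of 10 genes of the fasting and feeding response, 4 fell and 1 rose in HKO livers, where 3.37% of all tested genes were called as lower and 5.03% in either direction. Pdk4, the kinase that restrains pyruvate oxidation, had a log2FC of -2.15 and Fgf21, a fasting hormone, of -2.30, and both were called also without WT replicate 1. The gene that rose, named after its value was seen, was Irs2, an adaptor of the insulin receptor, with 0.58 (adjusted p = 0.0264). The study lists Irs2 among predicted miR-33 targets that were higher in HKO livers on CD-HFD. A direct effect of miR-33 on these genes was not tested here. Of the 13 tested genes of the clock, none was called by edgeR, DESeq2 or limma-voom, 1 had an unadjusted p under 0.05, and WT replicate 1 was highest in none. The part of feeding state in the pathway's levels was not tested.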

How the data were processed

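RNA-Seq of 8 mouse livers was analysed from the estimated counts per gene that the authors deposited, made per the labels with STAR and Partek. Partek's expectation-maximization method splits reads that match more than 1 gene, and 87.7% of the deposited values were whole (tolerance 0.01). The genome build is not given in the sources used here, and the coordinates were read as GRCm38, where 82.6% of 17763 matched symbols share a RefSeq start or end. A small RNA kit and an rRNA removal kit are both named in the labels, so the library type is uncertain, and strand use in counting is not given. Genotype and replicate were taken from the labels. The label descriptions of all WT samples begin with the same animal number, while the column names begin with a different number for each liver. Columns were matched to samples by title.

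Counts were rounded and tested in edgeR 4.0.16 (R 4.3.3) with TMM scaling, the default expression filter (minimum count 10), robust quasi-likelihood tests and Benjamini-Hochberg adjustment over 12395 genes, at an adjusted p under 0.05. Each SE is the size of the log2FC over the root of the F statistic, and SDs on the log2 scale use a prior count of 2. DESeq2 1.42.0, voom with limma 3.58.1, other scalings and filters, a replicate block, a fold change above 1.5, and leaving out each liver were the alternatives. The pathway genes and all gene lists were chosen with earlier results of these data known. Values in every liver are given for called genes, the 8 largest log2 fold changes and Srebf2, Scap, Insig1, Insig2 and Mylip, and of other lists at most 3 genes with the smallest p. One gene that this rule would name is not reported here. Further members are given by ranges that single out WT replicate 1, and Ebp was added after its values were seen. On simulated counts for this comparison (12438 genes run, 200 changed), edgeR recovered 86% and 97% of changes of 1 and 2 on the log2 scale, with 5.18% false calls. DESeq2 (17426 genes run) made 9.55% false calls. The simulation gave every gene the same spread between livers and had no liver that stood apart. It therefore cannot show how often a change would be found in genes with a peak in WT replicate 1.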

Additional observations from a re-analysis of the deposited data

Results flagged for a closer look

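Each of the 28 genes, the marker sums of 8 cell types, the library totals and the share of the 10 most abundant genes were examined for a liver far from the others of its genotype, by the gap to the nearest liver over the whole range of the 4, against Dixon's 95% critical value for 4 samples. Chance gives such a gap in about 1 of 20 groups, or about 4 of the 76 groups examined. The groups are not independent, since the same livers enter every gene, so 1 unusual liver can be counted many times. A gap past the value was found in 15 groups. In 13 of them, all of pathway genes, the far liver was WT replicate 1, on the high side. In the mevalonate steps these were Hmgcs1, at 1082 CPM where the other WT livers had 187 to 319, Mvd at 11.3 against 0.995 to 2.58, Idi1 at 12.8 against 2.19 to 2.58 and Fdft1 at 165 against 50.5 to 68.6 CPM. From squalene onward they were Sqle at 118 CPM against 5.67 to 12.1, Lss at 53.0 against 18.7 to 21.4, Cyp51 at 301 against 51.6 to 73.9 and Msmo1 at 359.7 against 60.6 to 86.6 CPM. The same held for Nsdhl at 99.7 CPM against 20.9 to 26.5, Hsd17b7 at 142.6 against 55.6 to 67.0, Sc5d at 939 against 432 to 467 and Dhcr7 at 75.5 against 20.2 to 29.4 CPM. Acss2 was at 247 CPM against 66.2 to 87.9 CPM. The other 2 were marker sums: the neutrophil sum of HKO replicate 2, at 8.11 CPM against 1.75 to 2.81 CPM in the other HKO livers, and the adipocyte sum of WT replicate 2, at 0.0698 CPM, under the floor of 3 counts, against 0 in the other WT livers. No HKO liver passed the value in any of the 28 genes.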

How the results depend on the processing

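With all 8 livers, 1 of the other settings turned a direction, that of Mbtps1 under total count scaling (log2FC -0.0137). DESeq2 called 989 genes and 3 of the 28, a required fold change above 1.5 left 367 genes, and total count scaling called 740 genes, 119 of them higher in HKO livers, against 206 of 624. Leaving out each liver in turn gave 212 (without WT replicate 2) to 598 genes and 0 to 1 of the 28, with 364 genes without HKO replicate 4 and 272 without WT replicate 1. The median log2FC of the 28 ranged from -0.68 to -0.00739, the latter without WT replicate 1. With all 8 livers DESeq2 gave neither a p nor an adjusted p for Sqle and Cyp51. Without WT replicate 1 it gave both, and called neither gene.

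In the same fits the log2FC ranged from -0.45 to 0.13 for Mvk, -0.47 to 0.29 for Pmvk, -0.99 to 0.30 for Idi1, -2.21 to 0.27 for Sqle, -0.88 to 0.35 for Cyp51, -0.70 to 0.39 for Nsdhl, -0.27 to 0.23 for Stard4 and -0.46 to 0.40 for Acss2, each above 0 only without WT replicate 1. Mbtps2 ranged from -0.0625 to 0.0246 and Mylip from -0.0277 (without HKO replicate 1) to 0.68.

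Fits of DESeq2 and limma-voom without WT replicate 1 were added after seeing the data. DESeq2 called 648 genes and 2 of the 28, with a median of -0.00333, and limma-voom 298 genes and 0 of the 28, with a median of 0.0199. The values of DESeq2 and then limma-voom were 0.14 and 0.24 for Mvk, 0.30 and 0.25 for Pmvk, 0.31 and 0.28 for Idi1, 0.27 and 0.25 for Sqle, 0.35 and 0.34 for Cyp51, 0.40 and 0.35 for Nsdhl, 0.23 and 0.23 for Stard4, 0.40 and 0.37 for Acss2, and 0.00115 for Mvd in limma-voom.

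Replicate numbers 1 to 4 were used for both genotypes but did not pair the livers: the deviations of same-numbered livers correlated across genes at -0.06, 0.01, -0.08 and -0.15. With the replicate block 456 genes and 0 of the 28 passed, and Insig2 had an adjusted p of 0.0658. The cause of these changes was not tested. At these depths the lowest pathway levels, near 1 CPM in Mvd, rest on few reads.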
